A study of Mus musculus with 24 samples.

Results

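The core of the RAS-RAF-MEK-ERK cascade was followed through 7 genes of the 45706 in the count tables: Hras, Araf, Braf, Ksr1, Map2k1, Map2k2 and Mapk3. They were chosen by name, with earlier results of these data known. Each symbol matched 1 Ensembl identifier, and all 7 passed the filter on low counts in both tissues. The libraries came from organoids, epithelial cultures grown from crypts, of the proximal small intestine (SI) or the colon (COL) of C57BL/6N mice. All carried Villin::CreERT2, a Cre recombinase that the Villin promoter drives in intestinal epithelial cells and that works only with 4-hydroxytamoxifen (4-HT). BRAF cultures were BraffloxV600E/+, p53 cultures Trp53LSL-R172H/+, and BRAFp53 cultures carried both alleles. Off cultures received ethanol. On cultures received 4-HT for 24 h, at 3.5 µM in COL with RNA taken on day 3 and at 0.5 µM in SI with RNA taken on day 8. Each of the 12 groups had 2 libraries. Each genotype came from 1 donor mouse, so that genotype and donor cannot be told apart, while tissue, dose, day and medium also differ together. P-values measure the spread between libraries of a group, pooled over the groups of a fit. Those between the off tissues measure the spread between cultures instead. Both mutant alleles are built to stay off until Cre recombines them. Reads were counted per gene, so a Braf count pools mutant and wild-type transcripts.

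RAS proteins such as HRAS are small GTPases that receptors switch on at the membrane, and active RAS recruits RAF kinases such as ARAF and BRAF. RAF phosphorylates the kinases MEK1 and MEK2 (Map2k1 and Map2k2), which phosphorylate ERK kinases such as ERK1 (Mapk3), and the scaffold KSR1 holds RAF, MEK and ERK together. The V600E change makes BRAF active without RAS. In the intestinal epithelium the cascade relays epidermal growth factor signals, and its strength bears on whether crypt cells divide or differentiate. The activity of these kinases is set by phosphorylation, which RNA counts do not measure.

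The 250 bases before the start of 4 genes are shown because their levels differed most between the tissues (Braf, Ksr1, Map2k2) or after induction (Hras). They are RefSeq sequences of GRCm38.p6, written 5′ to 3′ on the gene's strand, and 6 of the 7 genes had a window in the RefSeq table. Ksr1 had 2 annotated starts. Capitals mark matches on either strand to the GC box GGGCGG, the ETS motif CCGGAAG, the AP-1 motif TGANTCA, the cAMP response element (CRE) TGACGTCA or the CDX motif TTTATNG, and no match overlapped another.
Braf, chr6:39725464-39725713, minus strand: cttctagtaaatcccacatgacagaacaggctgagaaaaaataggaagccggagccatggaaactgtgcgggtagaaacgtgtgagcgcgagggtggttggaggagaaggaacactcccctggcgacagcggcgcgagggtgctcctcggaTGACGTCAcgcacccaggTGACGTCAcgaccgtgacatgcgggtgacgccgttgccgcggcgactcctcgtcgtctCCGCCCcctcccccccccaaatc
Ksr1 upstream start, chr11:79146474-79146723, minus strand: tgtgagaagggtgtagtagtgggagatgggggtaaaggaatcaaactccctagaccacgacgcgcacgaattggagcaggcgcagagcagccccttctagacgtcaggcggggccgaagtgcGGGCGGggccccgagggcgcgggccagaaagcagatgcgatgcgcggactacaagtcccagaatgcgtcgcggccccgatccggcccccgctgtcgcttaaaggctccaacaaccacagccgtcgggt
Ksr1 downstream start, chr11:79059837-79060086, minus strand: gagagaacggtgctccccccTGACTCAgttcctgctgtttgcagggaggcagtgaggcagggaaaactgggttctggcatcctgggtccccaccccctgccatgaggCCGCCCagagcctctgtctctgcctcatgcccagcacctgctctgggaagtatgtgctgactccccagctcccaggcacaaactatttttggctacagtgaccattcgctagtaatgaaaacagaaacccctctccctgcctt
Map2k2, chr10:81105665-81105914, plus strand: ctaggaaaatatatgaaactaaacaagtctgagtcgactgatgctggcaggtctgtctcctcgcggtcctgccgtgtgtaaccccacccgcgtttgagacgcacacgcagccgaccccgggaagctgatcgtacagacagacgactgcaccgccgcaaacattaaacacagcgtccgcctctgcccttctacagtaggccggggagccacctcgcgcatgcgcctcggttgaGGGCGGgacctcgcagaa
Hras, chr7:141194005-141194254, minus strand: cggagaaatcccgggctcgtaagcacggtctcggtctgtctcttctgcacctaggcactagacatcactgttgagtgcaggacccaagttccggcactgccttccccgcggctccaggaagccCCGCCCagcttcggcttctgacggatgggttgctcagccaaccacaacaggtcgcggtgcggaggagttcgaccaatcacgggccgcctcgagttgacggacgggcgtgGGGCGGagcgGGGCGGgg

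The Braf window held 2 CRE matches, beginning 99 and 81 bases before the start, and 1 GC box. A CRE match was present in 1.55% of the 32851 RefSeq windows of this length and a GC box in 32.7%. Hras held 3 GC boxes, Map2k1 (not printed) 4, and Map2k2 and each Ksr1 window 1. The downstream Ksr1 window also held 1 AP-1 match, a motif found in 6.75% of all windows. Araf held none of the motifs, and no member's window matched the ETS (6.91% of all windows) or CDX motif (9.81%). These matches describe letters and are no evidence of binding.

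In GENCODE M21 coordinates (GRCm38) the protein-coding genes lie at chr7:141189105-141194005 (Hras), chrX:20797814-20860519 (Araf), chr6:39603237-39725463 (Braf), chr11:79013440-79146407 (Ksr1), chr9:64185770-64253631 (Map2k1), chr10:81105915-81133975 (Map2k2) and chr7:126759601-126765819 (Mapk3). Their exons share no base with a gene on the same strand. Opposite-strand exons cover 2.62% of the exon length of Ksr1, 1.05% of Braf and 0.138% of Araf, and without a stated strand setting reads there cannot be split.

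Libraries held 44350747 to 78175143 gene counts. Epithelial markers were present in every library and 9 stromal and immune markers summed to at most 19.6 counts per 1e+06 (CPM, scaled by TMM over all libraries), with Cd3e at most 0.0395 and Col1a1 at most 0.746 CPM. Both BRAF cultures stood apart in markers of position along the gut. The COL BRAF culture held 32.1 to 49.4 CPM of Gata4, a proximal SI factor, against 0.293 to 2.67 in other COL libraries and 80.1 to 119 in SI. The SI BRAF culture held 6.09 to 22.9 CPM of Onecut2 against 126 to 209 in the other SI libraries. The COL p53 culture had the most Car1, a colonocyte enzyme, at 13291 to 18014 CPM against 1328 to 4948 in COL BRAF and 3476 to 9596 in COL BRAFp53. The comparison of the tissues is given with and without the BRAF cultures, and the induction results of the BRAF genotype rest on them alone.

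**Figure D1:**
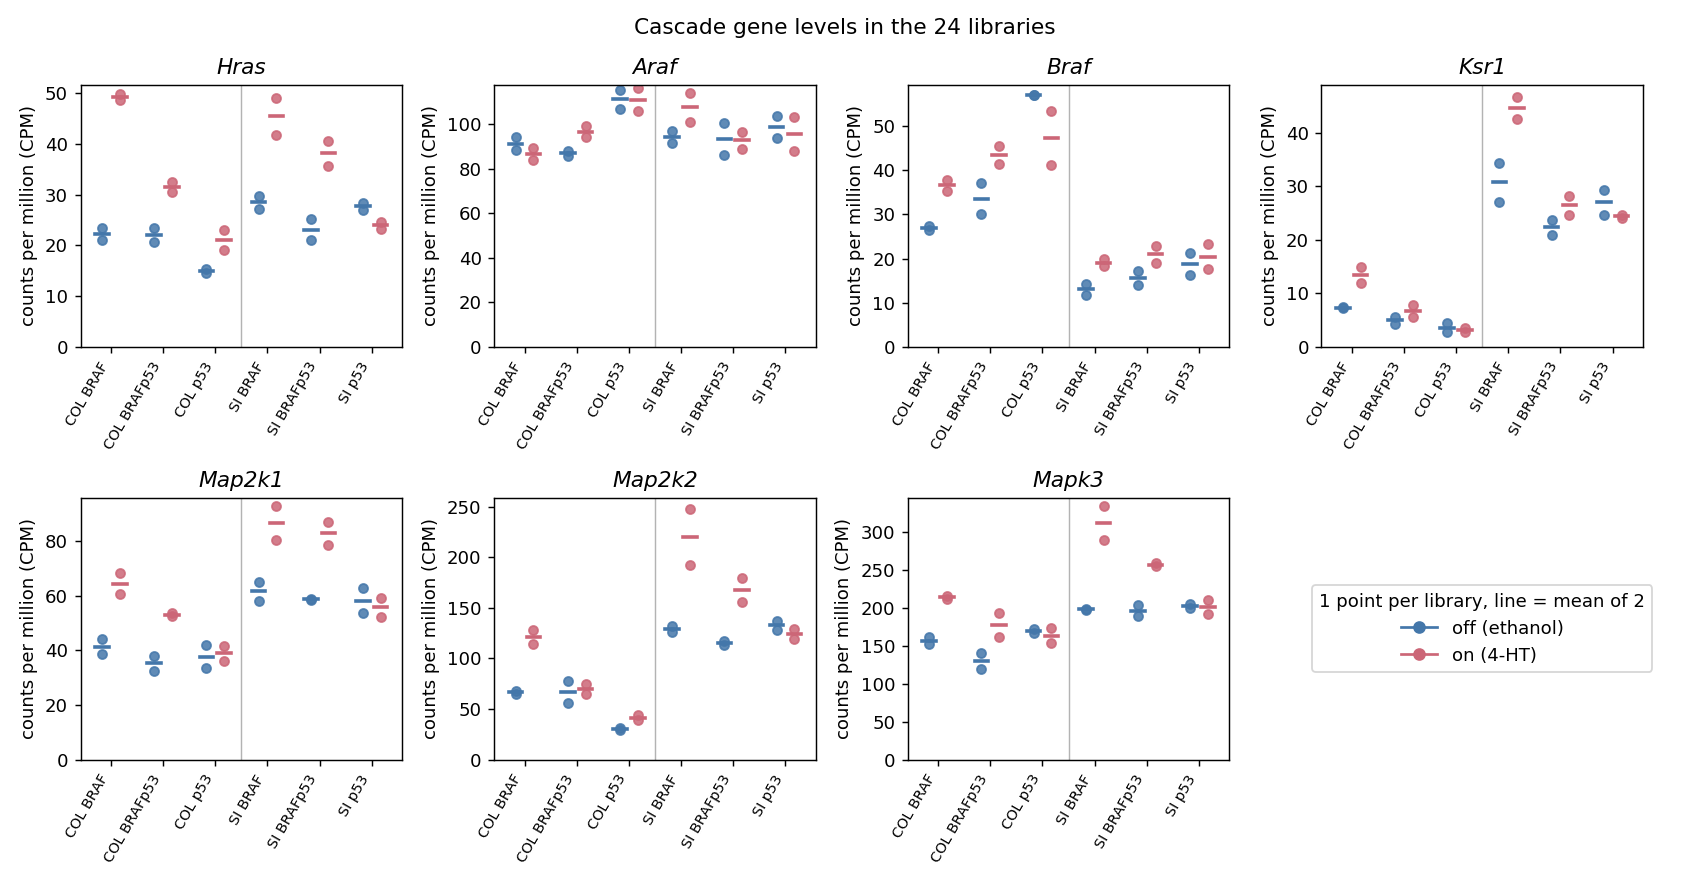
Level (CPM, linear axis from 0) of the 7 cascade genes, with 1 point per library and a line at the mean of 2, for off (ethanol) and on (4-HT) libraries of each tissue and genotype. Hras, Map2k1 and Mapk3 lie higher in both on libraries than in both off libraries of every BRAF and BRAFp53 culture, and Braf is higher in every COL library than in any SI library.

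The regional question is how the cascade is set before induction. Off COL organoids held more Braf and less Ksr1, Map2k1 and Map2k2 transcript than off SI organoids, while differences of Araf, Hras and Mapk3 did not pass the test. Counts of both off libraries were added up per culture, and the 3 COL cultures were tested against the 3 SI cultures with edgeR's quasi-likelihood test. The methods name 3 donor mice, so the COL and SI cultures of a genotype appear to share a donor, and this test did not pair them. With genotype as a block all 7 members kept their direction and their call or lack of a call. Of the 7 genes 1 was higher and 3 were lower in COL, where 17% of all genes tested were higher and 12.6% lower.

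Ksr1 differed most. Its level was 2.74 to 7.39 CPM (median 5.02) in the 6 COL off libraries and 20.9 to 34.4 CPM (median 25.8) in the 6 SI off libraries, with no overlap (COL over SI log2 fold change -2.30 ± 0.29, adjusted p = 0.00287). Braf went the other way, at 26.5 to 57.1 CPM (median 33.5) in COL and 11.8 to 21.2 CPM (median 15.3) in SI, again without overlap (2.52-fold, log2 fold change 1.34 ± 0.30, adjusted p = 0.0169). Within COL its level differed between cultures, at 26.5 and 27.4 CPM in BRAF, 37.1 and 30.0 in BRAFp53 and 57.0 and 57.1 in p53 organoids. The other RAF member, Araf, did not pass the test, at 85.9 to 115 CPM (median 91.2) in COL and 86.0 to 104 CPM (median 95.4) in SI (log2 fold change 0.04 ± 0.14, adjusted p = 0.835).

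Both MEK genes were lower in COL. Map2k2 measured 29.2 to 77.3 CPM (median 60.4) in COL and 113 to 137 CPM (median 127) in SI (log2 fold change -1.18 ± 0.29, adjusted p = 0.0226). The lowest COL values were those of the p53 culture, at 29.2 and 31.6 CPM. Map2k1 measured 32.5 to 44.0 CPM (median 38.4) in COL and 53.5 to 65.1 CPM (median 58.7) in SI (log2 fold change -0.61 ± 0.12, adjusted p = 0.00973), so that the tissues did not overlap for either gene. Mapk3 and Hras did not pass the test. Mapk3 measured 119.9 to 172 CPM (median 156) in COL and 189 to 205 CPM (median 199) in SI, also without overlap (log2 fold change -0.36 ± 0.14, adjusted p = 0.0948). The ranges of Hras overlapped, at 14.6 to 23.4 CPM (median 20.8) and 21.0 to 29.8 CPM (median 27.0) (log2 fold change -0.40 ± 0.19, adjusted p = 0.160).

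Without the BRAF cultures of both tissues the log2 differences were -2.51 for Ksr1, 1.43 for Braf, -0.66 for Map2k1 (adjusted p = 0.00347, 0.0255 and 0.0344) and -1.33 for Map2k2, which was then no longer called (adjusted p = 0.0515). The call of Map2k2 was also lost without the SI BRAF, SI BRAFp53 or SI p53 culture (adjusted p = 0.0537, 0.0562 and 0.0752), that of Braf without SI BRAF or SI BRAFp53 (0.0531 and 0.0647) and that of Map2k1 without SI p53 (adjusted p = 0.0506), whereas Mapk3 gained one without the COL p53 culture (adjusted p = 0.0351). With library totals in place of TMM scaling the median of all genes moved from 0.08 to 0.33 and the share of called genes that were higher in COL from 57.3% to 76.4%. Braf and Ksr1 were then called (1.57 and -2.05) and Map2k1 and Map2k2 were not (-0.37 and -0.93, adjusted p = 0.0524 and 0.0580). With the 12 off libraries as samples Hras and Mapk3 were called as well (adjusted p = 0.0286 and 0.00863).

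Per length Mapk3 led the order of levels in both tissues. In off SI cultures, as CPM per kilobase of exon (RPKM, mean ± SD of 3 cultures), it ran from Mapk3 at 88.1 ± 1.46 through Map2k2 at 22.2 ± 1.64, Map2k1 at 17.5 ± 0.535, Araf at 14.6 ± 0.441, Hras at 7.08 ± 0.776 and Ksr1 at 3.75 ± 0.593 to Braf at 1.14 ± 0.205. Each neighbour there differed by more than the SDs. In off COL cultures it ran from Mapk3 at 67.4 ± 8.77 through Araf at 14.7 ± 1.98, Map2k1 at 11.2 ± 0.905, Map2k2 at 9.62 ± 3.68, Hras at 5.29 ± 1.10 and Braf at 2.83 ± 1.14 to Ksr1 at 0.744 ± 0.266. The SDs of Map2k1 and Map2k2 overlapped, as did those of Map2k2 and Hras, and Braf and Ksr1 had changed places at the foot of the order.

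**Figure D2:**
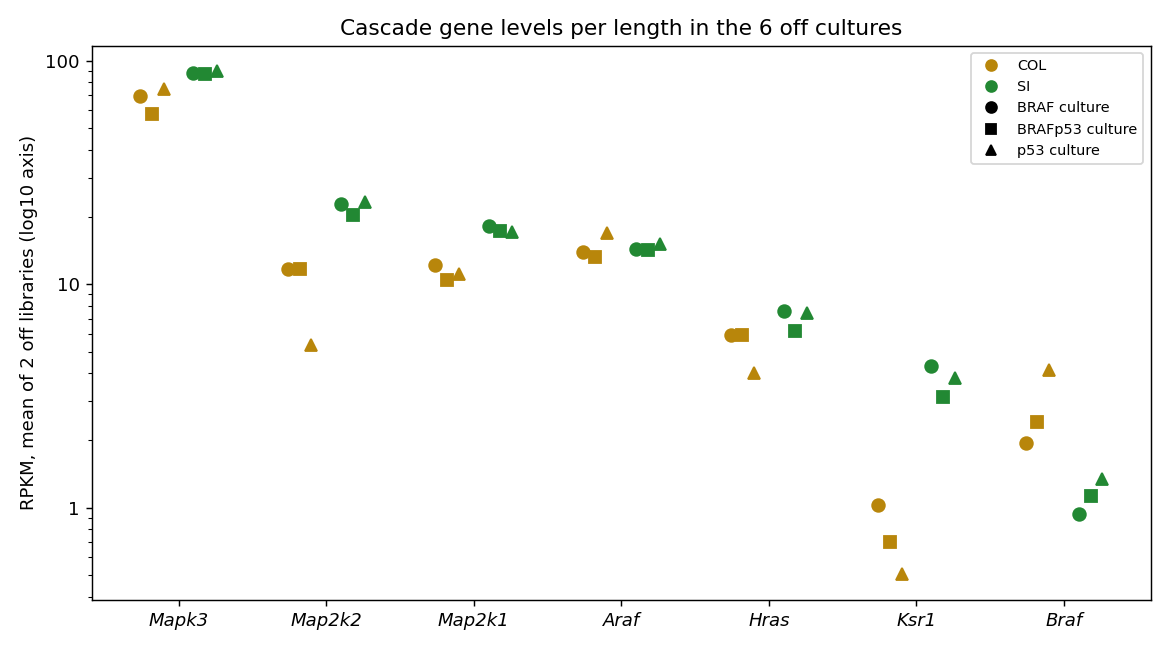
Level per length (RPKM, log10 axis) of the 7 genes in the 6 off cultures, each point the mean of 2 libraries, coloured by tissue and shaped by genotype. Ksr1 and Map2k2 of all 3 COL cultures lie under those of all 3 SI cultures, and Braf lies above them.

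Close relatives of the members were set beside them. The RAS gene Nras was higher in COL than in SI (log2 fold change 0.81 ± 0.16, adjusted p = 0.0109), a call lost without the SI BRAFp53 or SI p53 culture (adjusted p = 0.0534 and 0.0610). Map2k1 made 55.1% ± 10.6 of the MEK transcripts in COL and 44.2% ± 1.88 in SI (share of the summed RPKM of Map2k1 and Map2k2, mean ± SD of 3 off cultures), but the COL cultures were not alike, at 50.9% in BRAF, 47.2% in BRAFp53 and 67.2% in p53 organoids. Ksr2, the relative of Ksr1, was at most 0.278 CPM in any library, and in SI at most 3 counts a library. Taken as a share of counts without a length, Map2k2 made 57.2% ± 10.8 in COL, with the p53 culture at 44.9%.

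The off cultures of COL differed between genotypes, while in SI no member passed that test. Against the p53 culture, COL BRAF organoids held less Braf and more Hras, Ksr1 and Map2k2 before induction, 4 of 7 members called where 26% of all genes were. COL BRAFp53 organoids held less Araf, Braf and Mapk3 and more Hras and Map2k2, 5 of 7 called against 23.1% of all genes. Both share the same p53 libraries. Map2k2 was higher by 1.13 ± 0.16 (adjusted p = 0.000373) on the log2 scale in BRAF and 1.11 ± 0.16 (adjusted p = 0.000822) in BRAFp53, and Braf was lower, at -1.08 ± 0.15 (adjusted p = 0.000378) and -0.78 ± 0.15 (adjusted p = 0.00331). These calls held without any 1 COL library. Markers differed between the same off libraries. Summed colonocyte markers were 1476 to 1516 CPM in BRAF, 3555 to 4395 in BRAFp53 and 13909 to 18234 in p53 organoids, and summed stem cell markers 307 to 380.1, 466 to 582 and 199.8 to 242 CPM. Car1 made up most of the colonocyte sum, at 1328 to 1347, 3476 to 4311 and 13594 to 18014 CPM. The SI markers Gata4 and Fabp1 were at 42.0 to 49.4 and 84.3 to 90.4 CPM in BRAF against 0.870 to 1.90 and 0.428 to 0.580 CPM in p53 organoids. In BRAFp53 organoids they were at 1.73 to 2.67 and 0.0852 to 0.249 CPM. Lower Braf and higher Ksr1 and Map2k2 in the BRAF culture have the direction of SI against COL. Braf and Map2k2 had the same direction in BRAFp53 organoids, as did Ksr1 without a call (0.46 ± 0.27, adjusted p = 0.257). The part of these markers in the differences was not tested.

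The other calls were lost without single libraries. Hras was at 0.57 ± 0.14 (adjusted p = 0.0103) in BRAF and 0.54 ± 0.14 (adjusted p = 0.0159) in BRAFp53. Without COL p53 off replicate 1 or 2 the adjusted p was 0.0894 or 0.0599 in the former and 0.122 or 0.0818 in the latter, and it was 0.0798 without COL BRAF off replicate 1 and 0.120 without COL BRAFp53 off replicate 2. Ksr1 was higher in BRAF, at 1.04 ± 0.27 (adjusted p = 0.0152), and lost the call without COL p53 off replicate 2, COL BRAF off replicate 1 or COL BRAF off replicate 2 (adjusted p = 0.159, 0.0530 and 0.0665). Araf, at -0.37 ± 0.10 (adjusted p = 0.0220), and Mapk3, at -0.39 ± 0.12 (adjusted p = 0.0402), were lower in BRAFp53, and each lost the call without either p53 off replicate (highest adjusted p 0.147 and 0.145) and without COL BRAFp53 off replicate 1 (adjusted p = 0.0738 and 0.230). Araf lost it also without COL BRAFp53 off replicate 2 (adjusted p = 0.106) and Mapk3 without COL BRAF off replicate 1 or 2 (0.0554 and 0.0553). With library totals in place of TMM scaling Araf and Mapk3 were not called either, at -0.26 (adjusted p = 0.0981) and -0.28 (adjusted p = 0.101), and with DESeq2 Araf was called in BRAF as well, at -0.29 (adjusted p = 0.0252).

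In off SI cultures 0 of 7 members were called by edgeR, DESeq2 or limma-voom in BRAF against p53 (6.14% of all genes called) and in BRAFp53 against p53 (0.291%). At an unadjusted p under 0.05 there was 1 gene in the former and 0 in the latter. That gene was Braf, at 11.8 and 14.3 CPM in BRAF and 16.2 and 21.2 CPM in p53 organoids (log2 fold change -0.51 ± 0.19, adjusted p = 0.166).

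Induction was tested as on against off within each culture. After 4-HT the BRAF and BRAFp53 cultures of both tissues held more Hras, Map2k1 and Mapk3 transcript, and no member was called lower in any culture. In COL BRAF organoids 5 of 7 members rose, against 10.3% of all genes higher and 9.61% lower. In COL BRAFp53 3 rose (9.95% of genes higher, 7.76% lower), in SI BRAF 5 (17.5% and 14.2%) and in SI BRAFp53 4 (6.98% and 4.53%). The median log2 fold change of the 7 members was 0.64, 0.44, 0.50 and 0.38 in that order, where all genes tested had medians of -0.01, -0.04, -0.06 and -0.03. With library totals in place of TMM scaling the medians of all genes were -0.18, -0.20, -0.35 and -0.06, the share of called genes that were higher went from 51.7% to 31.8%, from 56.2% to 34.8%, from 55.2% to 27.3% and from 60.6% to 53.2%, and 3, 1, 2 and 3 members were called, all higher.

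Hras, the RAS member, gave the largest response of the 7 in COL BRAF organoids, with 23.4 and 21.0 CPM off and 48.7 and 49.9 CPM on (2.22-fold, log2 fold change 1.15 ± 0.14, adjusted p = 0.000219). In COL BRAFp53 it measured 20.6 and 23.4 CPM off and 32.5 and 30.5 CPM on (log2 fold change 0.52 ± 0.14, adjusted p = 0.0234). The SI cultures gave 27.1 and 29.8 CPM off and 41.7 and 49.1 CPM on in BRAF (log2 fold change 0.63 ± 0.14, adjusted p = 0.00443) and 21.0 and 25.2 CPM off and 35.7 and 40.6 CPM on in BRAFp53 (log2 fold change 0.69 ± 0.14, adjusted p = 0.00668). All 4 arms had on libraries above off libraries. Its relative Nras rose in COL BRAFp53 (log2 0.43 ± 0.09, adjusted p = 0.00576) and SI BRAF (0.38 ± 0.10, adjusted p = 0.0137), the latter call being lost without SI BRAF off replicate 2 or on replicate 2 (adjusted p = 0.0970 and 0.0518). With library totals in place of TMM scaling Nras was not called in either (adjusted p = 0.0601 and 0.537).

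The MEK genes rose in the BRAF cultures of both tissues. Map2k2 measured 65.1 and 67.9 CPM off and 114 and 128 CPM on in COL BRAF (1.81-fold, log2 fold change 0.86 ± 0.16, adjusted p = 0.00249) and 126 and 132 CPM off and 192 and 248 CPM on in SI BRAF (1.65-fold, log2 fold change 0.72 ± 0.13, adjusted p = 0.000818). In the BRAFp53 cultures it rose in SI, from 117 and 113 to 155 and 179.6 CPM (log2 fold change 0.51 ± 0.13, adjusted p = 0.0211), while the COL libraries overlapped, with 55.7 and 77.3 CPM off and 74.2 and 65.0 CPM on (log2 fold change 0.07 ± 0.15, adjusted p = 0.816). Map2k1 rose in all 4. It measured 44.0 and 38.7 CPM off and 68.2 and 60.7 CPM on in COL BRAF (log2 fold change 0.64 ± 0.14, adjusted p = 0.00885) and 32.5 and 38.0 CPM off and 52.6 and 53.5 CPM on in COL BRAFp53 (log2 fold change 0.59 ± 0.14, adjusted p = 0.0159). In SI it measured 65.1 and 57.9 CPM off and 80.4 and 92.8 CPM on in BRAF (log2 fold change 0.45 ± 0.12, adjusted p = 0.0133) and 58.4 and 58.9 CPM off and 78.6 and 87.1 CPM on in BRAFp53 (log2 fold change 0.46 ± 0.12, adjusted p = 0.0271), again with on libraries above off libraries.

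Mapk3, which encodes ERK1, rose in the same 4 cultures. SI BRAF gave the largest change, with 197 and 198 CPM off and 289 and 334 CPM on (log2 fold change 0.61 ± 0.10, adjusted p = 0.000487), and SI BRAFp53 measured 204 and 189 CPM off and 255 and 259 CPM on (log2 fold change 0.35 ± 0.10, adjusted p = 0.0385). The COL values were 161 and 152 CPM off and 212 and 216 CPM on in BRAF (log2 fold change 0.45 ± 0.12, adjusted p = 0.0250) and 119.9 and 141 CPM off and 194 and 161 CPM on in BRAFp53 (log2 fold change 0.44 ± 0.12, adjusted p = 0.0289).

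The scaffold gene Ksr1 rose in the BRAF cultures, from 7.23 and 7.39 to 11.9 and 15.0 CPM in COL (log2 fold change 0.87 ± 0.27, adjusted p = 0.0386) and from 34.4 and 27.1 to 42.6 and 46.7 CPM in SI (log2 fold change 0.50 ± 0.15, adjusted p = 0.0231). Both COL on values were still under every SI off library. In the BRAFp53 cultures it measured 5.64 and 4.32 CPM off and 7.87 and 5.54 CPM on in COL (log2 fold change 0.44 ± 0.27, adjusted p = 0.301) and 20.9 and 23.7 CPM off and 24.6 and 28.2 CPM on in SI (log2 fold change 0.21 ± 0.15, adjusted p = 0.460).

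With the filter and fit used throughout, edgeR called no RAF member in any culture. Braf, the gene that carries the V600E allele, had on libraries above off libraries in all 4 cultures with that allele. It measured 26.5 and 27.4 CPM off and 37.9 and 35.3 CPM on in COL BRAF (log2 fold change 0.44 ± 0.15, adjusted p = 0.0595), 37.1 and 30.0 CPM off and 45.5 and 41.4 CPM on in COL BRAFp53 (log2 fold change 0.38 ± 0.15, adjusted p = 0.103), 11.8 and 14.3 CPM off and 20.0 and 18.2 CPM on in SI BRAF (log2 fold change 0.50 ± 0.20, adjusted p = 0.0666) and 14.0 and 17.2 CPM off and 22.9 and 18.9 CPM on in SI BRAFp53 (log2 fold change 0.38 ± 0.19, adjusted p = 0.251). Under other processing Braf was called in both BRAF cultures. In SI BRAF it passed with RLE factors (adjusted p = 0.0489), with no filter on low counts (0.0374), with at least 10 counts in every library (0.0496), with DESeq2 (0.0271) and in the joint fit of 24 libraries (0.0302). In COL BRAF it passed with at least 10 counts in every library (adjusted p = 0.0333), with DESeq2 (0.0274) and without COL p53 on replicate 1 or 2 (0.0367 and 0.0364). Araf lay between -0.08 and 0.16 on the log2 scale in these 4 cultures, with no call.

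**Figure D3:**
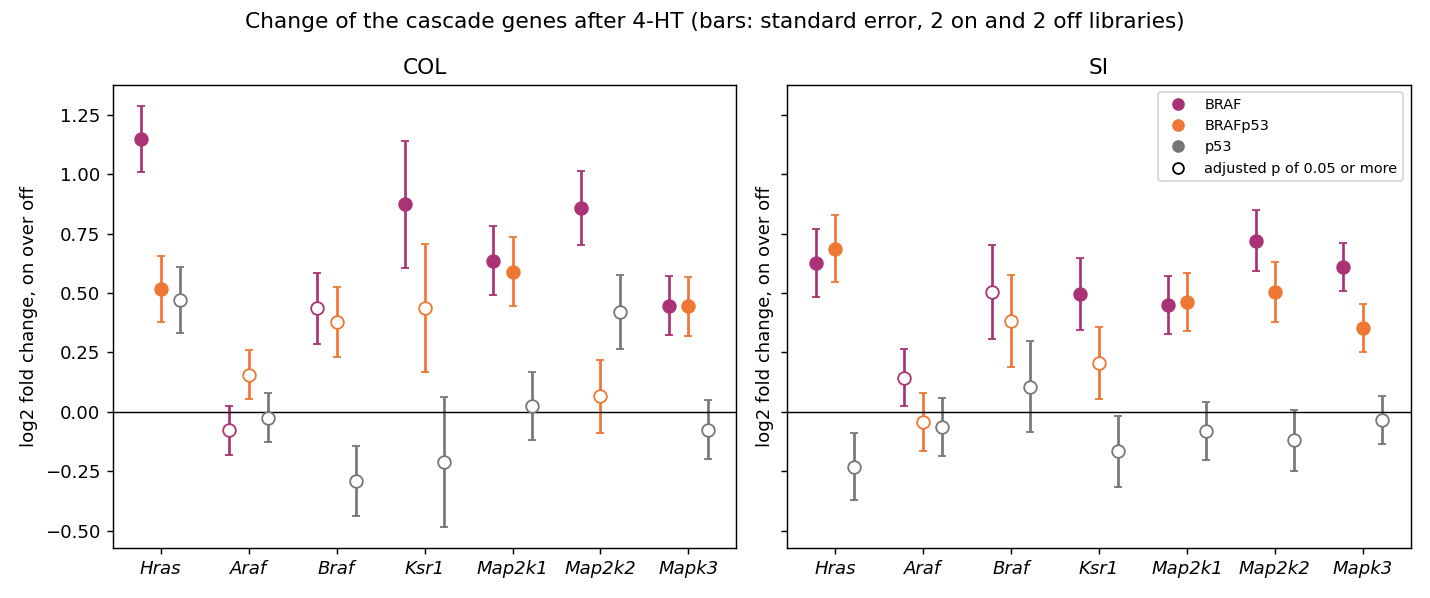
Log2 fold change of on over off for the 7 genes in each culture of COL (left) and SI (right), with the standard error of edgeR's fit over 2 on and 2 off libraries, filled where the adjusted p was under 0.05. Filled points are all above 0 and belong to BRAF and BRAFp53 cultures, and the p53 cultures have open points only.

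With 1 library fewer several of these calls were lost. In COL BRAF the calls of Hras and Map2k2 held without any 1 of the 12 COL libraries. Those of Ksr1 and Mapk3 were lost without each of the 4 COL BRAF libraries (adjusted p = 0.0696 to 0.224 and 0.0862 to 0.142), and that of Map2k1 without off replicate 2 or on replicate 1 (0.0818 and 0.0860). In SI BRAF Hras, Map2k2 and Mapk3 held throughout, and Ksr1 and Map2k1 were lost without off replicate 2 (adjusted p = 0.211 and 0.115) or on replicate 2 (0.110 and 0.111). The calls of COL BRAFp53 were all lost without off replicate 1 (adjusted p of Hras 0.133, of Map2k1 0.106, Mapk3 0.179) or on replicate 1 (0.124, 0.0611 and 0.201), and those of Hras and Map2k1 without on replicate 2 (0.0542 and 0.0560). Those of SI BRAFp53 were all lost without off replicate 1 (adjusted p of Hras 0.0888, Map2k1 0.144, Map2k2 0.0950, Mapk3 0.106) or on replicate 2 (0.0834, 0.222, 0.211 and 0.208). Without off replicate 2 Hras alone kept its call (adjusted p of Map2k1 0.113, Map2k2 0.115, Mapk3 0.218), and Mapk3 lost its call without every SI library other than the 2 SI BRAF on libraries (adjusted p = 0.0529 to 0.218). The joint fit of 24 libraries lost Ksr1 in SI BRAF (adjusted p = 0.0668) and no filter on low counts lost Mapk3 in SI BRAFp53 (adjusted p = 0.0509). Library totals in place of TMM scaling lost Ksr1 and Mapk3 in COL BRAF, Hras and Mapk3 in COL BRAFp53, Hras, Ksr1 and Map2k1 in SI BRAF and Mapk3 in SI BRAFp53 (adjusted p = 0.0536 to 0.311).

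Cell type markers moved in the same cultures, and some also in the p53 cultures. Summed stem cell markers (5 genes, at least 4 detected in every library) were 307 to 380.1 CPM in off and 101 to 141 CPM in on libraries of COL BRAF, and 466 to 582 CPM in off and 138 to 189.8 CPM in on libraries of COL BRAFp53. In SI they were 387 to 417 CPM in off and 53.6 to 157 CPM in on libraries of BRAF, and 318 to 436 CPM in off and 218 to 252 CPM in on libraries of BRAFp53. All 4 cultures held less of them after 4-HT without overlap, while the off and on ranges of the p53 cultures overlapped. Summed enterocyte markers (6 genes) were 9955 to 13214 CPM in off and 42794 to 48050.3 CPM in on libraries of SI BRAF, and 19579 to 23286 CPM in off and 30576 to 31697 CPM in on libraries of SI BRAFp53. Summed colonocyte markers (5 genes) were 1476 to 1516 CPM in off and 3253 to 5069 CPM in on libraries of COL BRAF, and 3555 to 4395 CPM in off and 5384 to 9682 CPM in on libraries of COL BRAFp53. Car1 alone was 1328 to 1347 CPM off and at most 4948 CPM on in COL BRAF. In COL BRAFp53 it was 3476 to 4311 CPM off and at most 9596 CPM on. Car1 thus made up most of these sums in the off libraries and in the highest on library. The sums of 6 epithelial, 5 goblet cell and 9 stromal and immune markers were also higher in on than in off libraries of all 4 cultures. Epithelial markers summed to 6554 to 6938 CPM off and 15192 to 16041 CPM on in COL BRAF, goblet cell markers to 405 to 415 CPM off and 899 to 1087 CPM on in SI BRAFp53, and stromal and immune markers to 5.91 to 6.48 CPM off and 15.0 to 16.4 CPM on in COL BRAF. Both p53 cultures had more epithelial markers on than off as well, and the COL p53 culture more stromal and immune markers. Summed enteroendocrine markers (5 genes) were higher on than off in all COL cultures and SI BRAFp53. Paneth cell markers (5 genes) went in different directions, at 367 to 408 CPM off and 151 to 165 CPM on in SI BRAF and 149.9 to 186 CPM off and 213 to 328 CPM on in SI BRAFp53. They were lower on than off also in COL BRAFp53 (1326 to 1863 CPM off and 1155 to 1301 CPM on) and higher in SI p53 (138 to 144 CPM off and 158 to 162 CPM on). Over all libraries this sum was 621 to 2258 CPM in COL and 138 to 408 CPM in SI. In COL it is therefore not read as a measure of Paneth cells. The enterocyte sum was higher on than off in COL BRAF (995 to 1031 CPM off and 1137 CPM in both on libraries). Fabp1 of this list did not follow the sum there, at 84.3 to 90.4 CPM off and as low as 6.78 CPM on. The colonocyte sum was higher in SI BRAF (191 to 195 CPM off and 240.1 to 272 CPM on) and lower in SI BRAFp53 (225 to 237 CPM off and 169 to 189.9 CPM on). Car1 was at most 0.267 CPM in SI, so the colonocyte sum there reflects other genes of the list. Tuft cell markers (4 genes) were lower on than off in SI BRAF, SI BRAFp53 and COL BRAFp53. In the COL p53 culture, where no member was called, the enterocyte sum was 632 to 752 CPM off and 399.8 to 419 CPM on, the Paneth cell sum 1169.6 to 1376 CPM off and 1634 to 2258 CPM on and the tuft cell sum 41.0 to 49.7 CPM off and 52.2 to 59.0 CPM on, each without overlap. In bulk RNA a change in the number of cells of a type and a change in RNA per cell cannot be told apart, and the part of these shifts in the members' changes was not tested.

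The p53 cultures received the same 4-HT and carried the same Cre but no conditional Braf allele. None of the 7 members was called there by edgeR, DESeq2 or limma-voom in either tissue, and at an unadjusted p under 0.05 there were 2 in COL and 0 in SI. Few genes of any kind were called (0.0316% higher and 0.111% lower in COL, 0% and 0% in SI). Without adjustment 1583 genes of the colon and 873 of the small intestine had p under 0.05, and in the colon DESeq2 called 117 higher and 207 lower and limma-voom 4 and 33. For SI DESeq2 called 18 genes higher and 47 lower and limma-voom 0 and 1. In COL p53 organoids Hras nevertheless measured 14.6 and 15.4 CPM off and 23.1 and 19.1 CPM on and Map2k2 29.2 and 31.6 CPM off and 38.6 and 44.1 CPM on, with on above off in both. Their log2 fold changes were 0.47 ± 0.14 (adjusted p = 0.293) and 0.42 ± 0.16 (adjusted p = 0.449). Braf had on below off there, with 57.0 and 57.1 CPM off and 53.5 and 41.2 CPM on (log2 fold change -0.29 ± 0.15, adjusted p = 0.654). In SI p53 organoids no member had on libraries above off libraries, and Hras measured 28.4 and 26.9 CPM off and 23.2 and 24.6 CPM on (log2 fold change -0.23 ± 0.14, adjusted p = 1).

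Whether the responses differed was tested directly. For the BRAFp53 response less the BRAF response, edgeR called 0 of 7 members in COL (0.907% of all genes called) and 0 in SI (8.2%), with 2 and 0 members at an unadjusted p under 0.05. DESeq2 called 2 members in COL. These were Map2k2, for which the COL difference was -0.79 ± 0.22 (adjusted p = 0.0926) on the log2 scale in edgeR and -0.78 in DESeq2 (adjusted p = 0.0144), and Hras, at -0.63 ± 0.19 (adjusted p = 0.118) and -0.62 (adjusted p = 0.0365). Map2k2 passed in edgeR with no filter on low counts (-0.76, adjusted p = 0.00934) and without COL BRAFp53 off replicate 1 (-1.01, adjusted p = 0.0397).

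The COL response was set against the SI response in 1 fit of all 24 libraries, and edgeR called 0 of 7 members in BRAF (10.7% of all genes called), 0 in BRAFp53 (3.52%) and 0 in p53 cultures (0.117%). At an unadjusted p under 0.05 there were 1, 1 and 2 members. DESeq2 called 1, Hras in the p53 cultures, and limma-voom 0. The difference of the Hras responses was 0.48 ± 0.19 (adjusted p = 0.120) in BRAF and 0.70 ± 0.19 (adjusted p = 0.209) in p53 cultures on the log2 scale, and that of Map2k2 was -0.48 ± 0.20 (adjusted p = 0.223) in BRAFp53. With library totals edgeR called Hras in BRAF (0.64, adjusted p = 0.0406). Standard errors of these differences over all members lay between 0.15 and 0.31.

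Around the members, a list of 76 other pathway genes was counted: RAS-family GTPases, other RAF, MEK and ERK-family kinases, adaptors and exchange factors, GTPase-activating proteins, scaffolds with RAF regulators, and kinases downstream of ERK. In COL 71 of them were tested. In BRAF organoids 17 rose and 0 fell, in BRAFp53 15 rose and 0 fell, and none was called in p53 organoids (medians 0.18, 0.03 and 0.11 on the log2 scale). At an unadjusted p under 0.05 there were 6 in the latter, and DESeq2 called 0 and limma-voom 0. In SI 68 were tested. In BRAF 13 rose and 4 fell, in BRAFp53 8 rose and 1 fell, and none was called in p53 organoids (medians 0.08, 0.08 and 0.03). In SI p53 organoids 2 had an unadjusted p under 0.05, and DESeq2 called 0 and limma-voom 0. Of all genes 10.3% were higher and 9.61% lower in COL BRAF, 9.95% and 7.76% in COL BRAFp53, 17.5% and 14.2% in SI BRAF and 6.98% and 4.53% in SI BRAFp53, so the 13 of 68 higher in SI BRAF are near the background.

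In COL, the pathway genes with the largest rises were Sfn, which encodes 14-3-3 sigma (log2 1.61 ± 0.16, adjusted p = 5.48e-05, in BRAF and 1.55 ± 0.16, adjusted p = 9.04e-05, in BRAFp53), and Rps6ka4, a kinase that ERK phosphorylates (1.43 ± 0.22, adjusted p = 0.000950, and 1.37 ± 0.22, adjusted p = 0.00148). They were followed by the GTPase gene Rras in BRAF (1.27 ± 0.17, adjusted p = 0.000435) and the ERK5 gene Mapk7 in BRAFp53 (0.96 ± 0.21, adjusted p = 0.00764), which lost its call without COL BRAFp53 off replicate 1 (adjusted p = 0.0530). By class, the pathway genes that rose in COL BRAF and COL BRAFp53 were 7 and 9 of 25 scaffolds and RAF regulators, 3 and 2 of 7 GTPases, 3 and 1 of 9 GTPase-activating proteins, 2 and 1 of 8 kinases downstream of ERK, 1 and 2 of 8 RAF and MEK-ERK kinases and 1 and 0 of 14 adaptors and exchange factors.

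In SI BRAF organoids the largest rises were those of Rps6ka5, another ERK-fed kinase (1.45 ± 0.28, adjusted p = 0.00144), Rras (1.40 ± 0.18, adjusted p = 7.08e-05) and the scaffold gene Cnksr3 (1.33 ± 0.20, adjusted p = 0.000266). Rasa3, a GTPase-activating protein (-0.93 ± 0.29, adjusted p = 0.0287), Ppp1cc, a phosphatase catalytic subunit (-0.62 ± 0.14, adjusted p = 0.00381), and Pebp1, which binds and restrains RAF kinase (-0.45 ± 0.15, adjusted p = 0.0405), fell. Rasa3 was not called without off replicate 2 or on replicate 2 of SI BRAF (log2 -0.75 and -0.44), and Pebp1 lost its call without SI BRAF off replicate 1 or 2, without on replicate 2 (log2 -0.22) and without 5 of the 8 other SI libraries, and also with RLE factors (adjusted p = 0.0560). Rps6ka5 lost its call in the joint fit of 24 libraries (adjusted p = 0.0505). In SI BRAFp53 organoids Rasa4 (1.23 ± 0.23, adjusted p = 0.00355), Rras (1.10 ± 0.18, adjusted p = 0.00143) and Rps6ka4 (0.99 ± 0.16, adjusted p = 0.00112) rose, and the adaptor gene Gab1 fell (-1.06 ± 0.18, adjusted p = 0.00206). The adjusted p of Rasa4 was 0.0504 without SI BRAFp53 off replicate 2. By class, those that rose in SI BRAF and SI BRAFp53 were 5 and 1 of 25 scaffolds and RAF regulators, 2 and 1 of 7 GTPases, 1 and 3 of 9 GTPase-activating proteins, 3 and 1 of 8 kinases downstream of ERK, 1 and 1 of 7 RAF and MEK-ERK kinases and 1 and 1 of 12 adaptors and exchange factors. The 4 that fell in SI BRAF were 3 scaffolds and RAF regulators and 1 GTPase-activating protein.

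Between the off tissues 13 of the 68 pathway genes tested were higher in COL and 5 lower, beside 17% and 12.6% of all genes. The largest differences toward COL were those of Rasa4 (1.91 ± 0.40, adjusted p = 0.0133), the atypical ERK gene Mapk6 (0.98 ± 0.19, adjusted p = 0.00963) and Rps6ka3 (0.97 ± 0.14, adjusted p = 0.00392), and toward SI those of Lamtor2, part of a late endosomal MEK scaffold (-1.08 ± 0.16, adjusted p = 0.00438), Peak1 (-1.05 ± 0.13, adjusted p = 0.00281) and Ppp1cc (-0.96 ± 0.29, adjusted p = 0.0427). Rasa4 lost its call without the SI BRAFp53 culture (adjusted p = 0.0537), and Ppp1cc without the COL BRAFp53 culture or any 1 SI culture (highest adjusted p 0.119). Ppp1cc lost it also with genotype as a block, with library totals and without the BRAF cultures of both tissues (adjusted p = 0.0595, 0.121 and 0.0699).

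As a description of pattern, each member's log2 CPM over the 12 group means was set beside those of 8759 genes. The points share libraries and tissue differences, so no test was made. Among the most alike were Agrn (r = 0.974) for Hras, Fuca1 and Tmub1 (r = 0.948 and 0.912) for Araf, Lims1 and Daxx (r = 0.969 and 0.966) for Braf, Dnajc13 and Larp1b (r = 0.993 and 0.989) for Ksr1, Furin and Tmem8 (r = 0.983 and 0.978) for Map2k1, Git1 and Iscu (r = 0.994 and 0.991) for Map2k2 and Coro2a and Sra1 (r = 0.983 and 0.983) for Mapk3. No gene was among the closest to more than 1 member.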

How the data were processed

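Bulk RNA of 24 organoid libraries was sequenced paired-end. The deposited tables hold unnormalized read counts: the authors trimmed reads with Trimmomatic 0.36 and counted them with STAR 2.5.2b, on mm10 per the methods (the submitters' notes name mm9 and mm10). The annotation release and strand use are not given in the sources used here. All 24 columns were matched to groups from GEO's labels. Of 45706 identifiers 45143 matched a GENCODE M21 symbol.

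Per tissue, 12 libraries were scaled by TMM, filtered with filterByExpr and fitted with edgeR 4.0.16 (glmQLFit, glmQLFTest; R 4.3.3), with Benjamini-Hochberg adjusted p under 0.05 over all genes. Standard errors are the log2 fold change over the root of F. Tissue responses used 1 fit of 24 libraries. Levels are CPM on a TMM scale over all 24, and RPKM uses union exon length. At this depth 3 counts, the floor of detection, are 0.0368 to 0.0878 CPM. Such floors cover counting error only. Alternatives were RLE factors, other filters, DESeq2 1.42.0, limma-voom (3.58.1), a joint fit, a replicate block, unscaled totals and leaving out libraries or cultures. Scripts were tested on simulated data.

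The members and lists were chosen with earlier results of these data known. Pathway genes named are the 3 largest changes per direction among those called with average log2 CPM of at least 1, and like patterns the 2 highest r among genes with average log2 CPM of at least 3, predicted genes left out. Some genes that these rules or lists hold are counted but not reported here.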

Additional observations from a re-analysis of the deposited data

How the results depend on the processing

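No call of a member or named gene turned direction under any alternative run. Library totals in place of TMM (added after seeing the data) gave 3 members called in COL BRAF, 1 in COL BRAFp53, 2 in SI BRAF, 1 in the COL less SI responses and 2 between off tissues, and 27 pathway genes in SI BRAF against 17. DESeq2 gave 2 in the BRAFp53 less BRAF responses and 1 in the COL less SI responses, where edgeR gave 0. With no filter there were 1 in the former and 1 pathway gene in COL p53. The 12 off libraries as samples gave 40 pathway genes between tissues against 18. RLE factors, the stricter filter, limma-voom, the joint fit and genotype as a block kept every count of members within 1.5 times its main value, and likewise those of pathway genes between on and off and between tissues.

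Equal replicate numbers did not pair the libraries: the correlation of their deviations from group means ran from -0.10 to 0.16 over the 6 cultures. The replicate block gave 4 members called in COL BRAF, 1 in COL BRAFp53, 5 in SI BRAF and 2 in SI BRAFp53, and 17, 14, 18 and 9 pathway genes. The members not called with it were Mapk3 in COL BRAF, Hras and Mapk3 in COL BRAFp53, and Map2k1 and Mapk3 in SI BRAFp53.

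Without 1 library, the members called ranged over 2 to 6 in COL BRAF, 0 to 3 in COL BRAFp53, 3 to 5 in SI BRAF and 0 to 4 in SI BRAFp53, 0 to 1 in the BRAFp53 less BRAF responses and 4 to 10 among off cultures by genotype, and the pathway genes over 9 to 19 in COL BRAF and 5 to 13 in SI BRAFp53. Without 1 culture, 2 to 5 members and 6 to 22 pathway genes differed between off tissues. A group left with 1 library is assumed to vary like the others. The cause of these changes was not tested beyond the smaller number of libraries.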
